A study of Rattus norvegicus with 36 samples.

Results

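The comparison described here is between prefrontal cortex (PFC) RNA of 9 risk-seeking and 9 risk-averse rats. Its members are the 18 libraries labelled prefrontal cortex among the 36 of the series, and their preference group was taken from the disease state label. The rats are labelled Sparague Dawley, with no age or sex given in the labels. Per the labels, all of them had been trained in a touch-screen version of the rat gambling task, in which each of several light signals carries its own size and chance of reward and punishment, and each rat was sorted by its settled pattern of free choice. No untrained group is among the samples, so both groups share the training. The protocol names the dissected region as medial PFC. The 18 rats of this comparison are separate animals, named here by the codes of the sample titles. Each library held 20787526 to 34761269 read pairs counted to genes, and these totals did not differ between groups past the threshold (two-sided exact permutation test over 48620 regroupings of 9 against 9, p = 0.374).

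The prefrontal cortex weighs expected gain against risk and delay, holds rules in working memory and restrains impulsive responses. Its projection neurons send glutamatergic axons to the striatum, the nucleus accumbens (NAc) included, and it receives dopamine, noradrenaline and serotonin from the brainstem. In gambling tasks for rodents, prefrontal lesions and drugs acting on monoamines are known to shift choice between safe and risky options. RNA from dissected tissue pools all of these neurons with glia and vessels, so that fewer cells of a type and less RNA per cell cannot be told apart.

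Genes are given as Ensembl identifiers because 0 of the 32623 identifiers in each file matched the gene table used here and the files do not pair them with symbols. At most 2 identifiers in each direction are therefore printed for a comparison. For the same reason the 41 gene lists drawn up for pathways and cell types were not analysed here, and the labelled tissue was not checked against defining markers.

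The composition of the reads differed between the groups. HTSeq, the counting program, sets aside read pairs that overlap no annotated feature (no-feature), pairs that overlap more than 1 gene (ambiguous) and alignments that are not unique. The no-feature share, taken over gene, no-feature and ambiguous pairs, ran from 22.5% to 24.4% with a median of 23.3% in risk-seeking rats. In risk-averse rats it ran from 22.1% to 29.1% with a median of 24.6%, and 6 of the 9 lay above every risk-seeking rat. The lowest share of all 18 libraries was also risk-averse, in rat N6, so the groups overlapped.

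The ambiguous share, taken over gene plus ambiguous pairs, ran from 0.669% to 0.772% in risk-seeking rats and from 0.601% to 0.711% in risk-averse rats. Of the risk-averse rats, 5 lay below every risk-seeking rat (B2, B3, N6, R4 and R7), and the other 4 lay within the risk-seeking range. The not-unique share of all alignments ran from 13.3% to 13.8% in risk-seeking rats. In the 4 risk-averse rats B2, B3, R4 and R7 it was 12.2% to 12.5%, and no other library of the 18 was below 13.05%. These 4 libraries also stood apart on the first principal component of log2 expression (19.7% of the variance), at -31.4 to -19.9, where the other 14 lay at -4.09 or above. All 3 shares differed between the preference groups (two-sided exact permutation test, adjusted over 4 tests: p = 0.0215 for no-feature, 0.0142 for ambiguous and 0.0215 for not-unique pairs). The differences, risk-seeking minus risk-averse, were -1.72, 0.0637 and 0.527 percentage points.

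**Figure D1:**
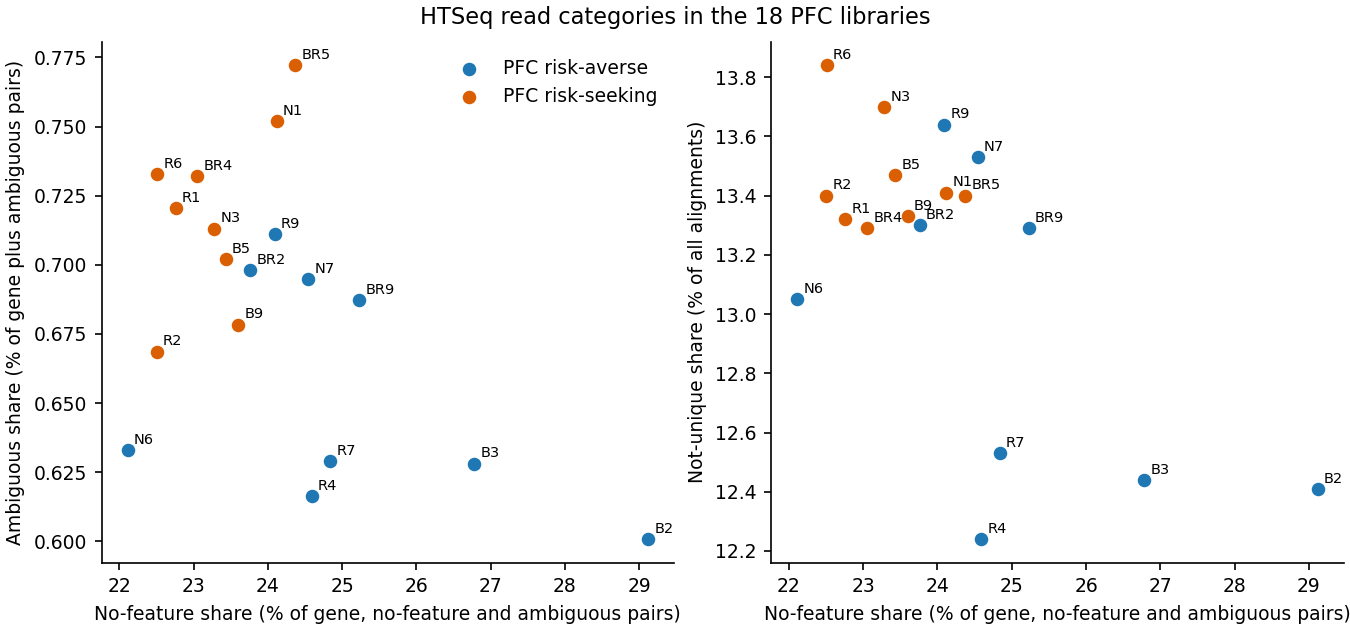
Each point is 1 PFC library, placed by its no-feature share (x axis, %) and by its ambiguous share (left) or not-unique share (right, both in %); colours give the preference group and letters the rat. On the right panel the 9 risk-seeking libraries lie at 13.3% to 13.8% not-unique alignments, and risk-averse B2, B3, R4 and R7 lie apart at 12.2% to 12.5%. On the left panel the ambiguous shares of the groups overlap.

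Gene expression was compared first with no covariate. Of 15128 genes tested, 3521 passed edgeR's quasi-likelihood test at a Benjamini-Hochberg adjusted p under 0.05, which is 23.3% of the genes tested. That count was far smaller when 4 risk-averse rats were left out. It was 4 of 15401 (0.026%) without B2, B3, R4 and R7. Without the 4 rats of highest no-feature share (B2, B3, BR9 and R7) it was 1 of 15403 (0.00649%). Both sets were chosen after the data were seen and left 5 risk-averse rats. No other set of 4 was left out for comparison, and the cause of the fall was not tested. In risk-seeking rats 1791 genes (11.8%) were higher and 1730 (11.4%) were lower. The genes that were lower had the larger differences. Their median absolute log2 fold change was 0.27 (interquartile range 0.20 to 0.36), against 0.23 (0.19 to 0.29) for those that were higher, and 81 lower but 21 higher genes reached 1.5-fold. Over all genes tested the median log2 fold change was 0.01 and the median absolute one 0.13. Called genes were more abundant than the rest: their median mean level was 46.3 CPM (counts scaled to an equal library total) for higher and 50.9 CPM for lower genes, against 21.9 CPM for all genes tested.

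Few genes parted the groups library by library. In 66 genes (0.436% of those tested) all 9 risk-seeking values lay on one side of all 9 risk-averse values, 13 above (0.0859%) and 53 below (0.35%). All 66 were among the called genes, which is largely fixed because both rest on the same values. The spread among risk-averse rats was wider. The median SD of log2 CPM within a group was 0.17 in risk-averse and 0.15 in risk-seeking rats, and 60.6% of genes had the larger SD in risk-averse rats. Without B2, B3, R4 and R7 the risk-averse median SD was 0.14 and 46.1% of genes had the larger SD there. Without B2, B3, BR9 and R7 they were 0.17 and 54.7%. These SDs rest on 5 risk-averse rats against 9 risk-seeking ones, so the percentages are not like for like. The first set holds the libraries that stood apart on the first principal component, so its smaller SD is in part fixed by that choice. Among called genes the larger SD was in risk-averse rats for 86.6% of the higher and 81.4% of the lower ones. These spreads are descriptions and were not tested.

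ENSRNOG00000007057 had the smallest p of all genes. Its level in risk-seeking rats was 39.1 CPM at the lowest, 43.8 CPM at the median and 51.8 CPM at the highest. In risk-averse rats it was 57.3, 69.8 and 94.0 CPM in the same order. The groups did not overlap, and the risk-seeking level was 60.7% of the risk-averse one (log2 fold change -0.72 ± 0.09 (SE), edgeR adjusted p = 0.00106). Rats B2, B3, R4 and R7 ran from 69.8 to 94.0 CPM, and the other 5 risk-averse rats from 57.3 to 76.1 CPM.

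ENSRNOG00000007090, the other leading lower gene, ran from 35.0 to 40.3 CPM with a median of 38.1 CPM in risk-seeking rats. In risk-averse rats it ran from 40.0 to 59.7 CPM with a median of 52.5 CPM, and R9 was the 1 risk-averse rat whose value fell within the risk-seeking range (log2 fold change -0.48 ± 0.07 (SE), edgeR adjusted p = 0.00155). Its 4 highest values were those of B2, B3, R4 and R7, at 57.3 to 59.7 CPM. Higher in risk-seeking rats was ENSRNOG00000038951, at 53.6 to 61.9 CPM (median 60.6 CPM) against 40.9 to 56.5 CPM (median 45.0 CPM), with a log2 fold change of 0.33 ± 0.06 (SE, edgeR adjusted p = 0.00275). ENSRNOG00000013468 was at 25.7 to 30.4 CPM (median 27.9 CPM) against 18.8 to 26.2 CPM (median 21.9 CPM), with a log2 fold change of 0.31 ± 0.06 (SE, edgeR adjusted p = 0.00275). For both of these genes the groups overlapped, and B2, B3, R4 and R7 held the 4 lowest values.

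**Figure D2:**
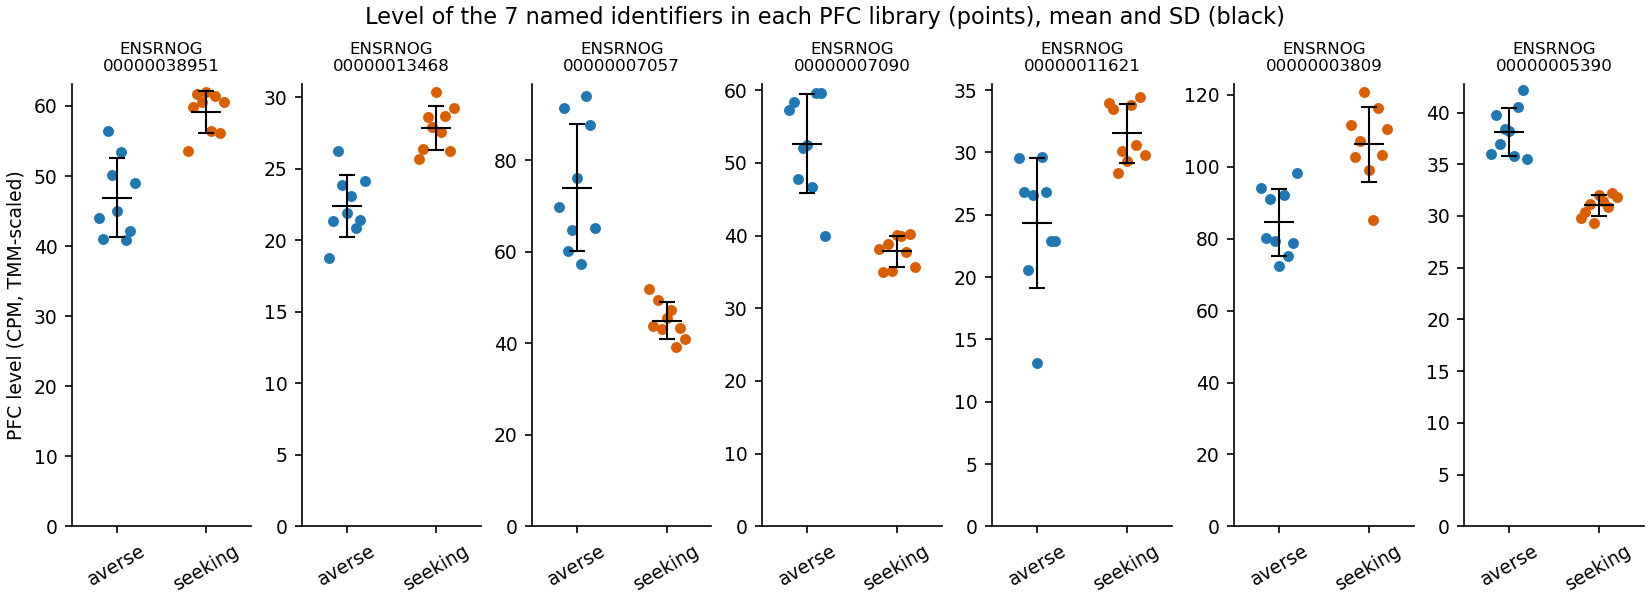
Points give the TMM-scaled level (y axis, CPM, starting at 0) of the 7 identifiers named in the text in each PFC library, with the group mean and SD in black (n = 9 per group). ENSRNOG00000007057 and ENSRNOG00000005390 show no overlap between risk-averse (blue) and risk-seeking (orange) rats; the other 5 overlap.

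The next question was which genes keep their difference when a read category share is held as a covariate. A gene was counted as kept when its adjusted p was under 0.05 in both fits and its direction was the same. With the no-feature share, edgeR called 334 genes (2.21% of those tested), 43 higher (0.284%) and 291 lower (1.92%) in risk-seeking rats. Of the 3521 genes called without the covariate 322 were kept, 39 higher and 283 lower. The other 12 passed only with the covariate, and all had the same direction in both fits. Genes that were lower were kept at 16.4% of their number and genes that were higher at 2.18%. The split moved with the tool, covariates and libraries: higher and lower kept genes numbered 268 and 819 by DESeq2, 1 and 30 by limma-voom, 201 and 447 with the letters of the title codes added, and 433 and 739 without BR2.

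No called gene turned its direction with the no-feature share, which is largely fixed because the genes were called on the same libraries. The median gene held 0.792 of its log2 fold change, 0.747 among higher and 0.862 among lower genes, while its standard error was a median 1.13 times as large. An unadjusted p under 0.05 was left for 2608 of these genes, which had been chosen on the same libraries, and was found for 3546 of all 15128. Kept genes had started from larger differences: the median absolute log2 fold change without the covariate was 0.33 for higher and 0.35 for lower kept genes, against 0.23 and 0.25 for those lost. In the fit with the covariate it was 0.35 and 0.34 for kept genes, and 0.17 and 0.21 for those lost. Kept genes were chosen by their p in that fit, so this gap is largely fixed by the choice. The fit without the covariate used the same libraries. The kept lower genes were abundant, with a median level of 76.3 CPM against 46.1 CPM for the lower genes lost. The kept higher genes were less so, at 25.1 CPM against 47.0 CPM. In the quartile of genes of highest mean level, 7 of 691 higher (1.01%) and 165 of 740 lower genes (22.3%) were kept. In the lowest quartile 6 of 89 higher (6.74%) and 1 of 142 lower genes (0.704%) were kept. Of genes that had reached 1.5-fold, 2 higher and 7 lower were kept while 19 higher and 74 lower were lost.

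The 2 lower genes of smallest p in that fit, among those kept, were ENSRNOG00000005390 and ENSRNOG00000007057. ENSRNOG00000005390 was at 29.4 to 32.2 CPM (median 31.1 CPM) in risk-seeking and 35.6 to 42.2 CPM (median 38.2 CPM) in risk-averse rats, with no overlap. Its log2 fold change was -0.30 ± 0.04 (SE, edgeR adjusted p = 0.00155) without and -0.31 ± 0.05 (SE, edgeR adjusted p = 0.0211) with the no-feature share. For ENSRNOG00000007057 it was -0.68 ± 0.11 (SE, edgeR adjusted p = 0.0211) with the share. Neither gene's difference changed by more than its standard error.

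The 2 kept higher genes of smallest p were ENSRNOG00000011621 and ENSRNOG00000003809. ENSRNOG00000011621 was at 28.4 to 34.5 CPM (median 30.6 CPM) in risk-seeking rats and 13.1 to 29.6 CPM (median 26.6 CPM) in risk-averse rats, where N6 was the lowest. Its log2 fold change was larger with the no-feature share, 0.58 ± 0.11 (SE, edgeR adjusted p = 0.0275), than without it, 0.37 ± 0.11 (SE, edgeR adjusted p = 0.0185). Rat N6, which had the lowest level of this gene, also had the lowest no-feature share. Without N6 the log2 fold change was 0.40 ± 0.09 (SE, edgeR adjusted p = 0.2705) with the share and 0.29 without it. The lost call is not particular to this gene, since no gene was called with the share once N6 was left out (lowest edgeR adjusted p = 0.149). ENSRNOG00000003809 was at 85.3 to 121 CPM (median 107 CPM) against 72.5 to 98.4 CPM (median 80.1 CPM). Its log2 fold change was 0.33 ± 0.07 (SE, edgeR adjusted p = 0.00437) without and 0.37 ± 0.08 (SE, edgeR adjusted p = 0.0330) with the share.

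The 4 genes leading the fit with no covariate were all kept. ENSRNOG00000007090 had a log2 fold change of -0.42 ± 0.08 (SE, edgeR adjusted p = 0.0275) with the no-feature share, ENSRNOG00000038951 stood at 0.29 ± 0.07 (SE, adjusted p = 0.0383), and ENSRNOG00000013468 at 0.25 ± 0.06 (SE, adjusted p = 0.0401).

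With the ambiguous share as covariate no gene was kept. In edgeR 0 of 15128 genes (0%) had an adjusted p under 0.05, the lowest being 0.761, and 902 had an unadjusted p under 0.05. Limma-voom also called 0, and DESeq2 called 2, of which 1 was among the 3521 and kept its direction. The direction held for 3492 of the 3521 genes, and the median gene held 0.488 of its log2 fold change with a standard error 1.20 times as large. Since the 3521 were called on the same libraries, a held direction is largely fixed by that choice. Among the genes kept with the no-feature share, 27 of 39 higher and 171 of 283 lower genes had an unadjusted p under 0.05 with the ambiguous share. Over all called genes it was 237 of 1791 higher and 411 of 1730 lower ones. Kept genes were chosen for small p on the same libraries, so the larger share among them is largely fixed by that choice.

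The 7 named genes held their direction with the ambiguous share, all at an edgeR adjusted p of 0.761. ENSRNOG00000007057 went from a log2 fold change of -0.72 to -0.50 ± 0.11 (SE) and ENSRNOG00000005390 from -0.30 to -0.25 ± 0.05 (SE). ENSRNOG00000011621 stood at 0.46 ± 0.15 (SE) and ENSRNOG00000003809 at 0.22 ± 0.08 (SE). ENSRNOG00000038951 and ENSRNOG00000013468 stood at 0.17 ± 0.06 and 0.16 ± 0.06 (SE). The ambiguous share and preference overlap more than the no-feature share does: 44.6% of the variance of the group term was shared with it, against 27.6% for the no-feature share. By that overlap alone a standard error grows 1.34-fold and 1.18-fold. For the not-unique share these values were 32.75% and 1.22-fold. Preference and ambiguous share can be told apart only as far as the remaining variance allows.

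With the not-unique share as covariate 1 gene (0.00661%) was called, ENSRNOG00000007057 (log2 fold change -0.50 ± 0.08 (SE), edgeR adjusted p = 0.0261). All 3521 genes held their direction, at a median 0.542 of the log2 fold change and with a standard error a median 1.025 times as large. They were called on the same libraries, so a held direction is largely fixed by that choice. With the log2 of total gene counts as covariate 2830 of the 3521 were kept, at a median 0.947 of the log2 fold change.

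**Figure D3:**
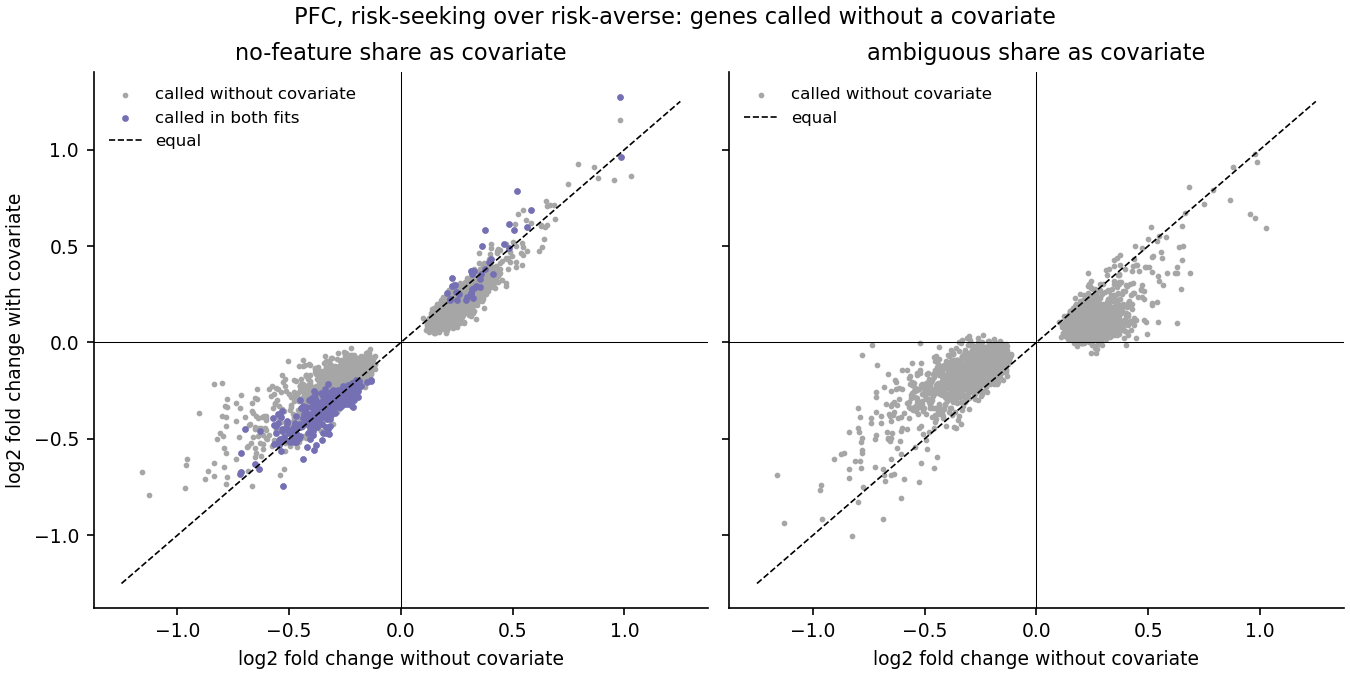
Each point is 1 of the 3521 genes called without a covariate, with its log2 fold change (risk-seeking over risk-averse) without a covariate on the x axis and with the no-feature share (left) or the ambiguous share (right) on the y axis. Purple marks the 322 genes called in both fits, of which 283 are lower; on the right none is called, and most points lie nearer to 0 than the dashed line of equal values.

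The level of the called genes was uneven among risk-averse rats. For each library the median of log2 CPM minus the midpoint of the group means was taken over the called genes. Since these genes were called on these libraries, the gap between the groups is fixed by that choice. Only the order within a group is described, and the choice shapes that order too. Over the 1791 higher genes the risk-averse medians were -0.29 in B3, -0.27 in R4, -0.25 in B2 and -0.22 in R7. They were -0.09 in N6, -0.07 in BR9, -0.01 in R9, 0.06 in N7 and 0.08 in BR2. The 4 lowest are the rats of lowest not-unique share. They are also the rats that stood apart on the first principal component, so their place here is not a separate observation. The no-feature shares of these 4 were 24.6% to 29.1%, those of BR9 and N6 25.2% and 22.1%. Among risk-seeking rats the medians ran from 0.06 in B5 to 0.17 in R1.

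Over the kept genes the order differed in part. These genes were chosen in a fit that holds the no-feature share, so the order within a group is also shaped by that choice. Medians over the 39 kept higher genes ran from -0.30 in R4 to -0.05 in BR2 among risk-averse rats and from 0.02 in R2 to 0.35 in BR5 among risk-seeking rats. N6 stood at -0.21, beside R7, B3 and R4. In the 283 kept lower genes, N7, BR2 and R9 were at -0.01, -0.01 and -0.02, below the other 6 risk-averse rats, which ran from 0.10 to 0.39.

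**Figure D4:**
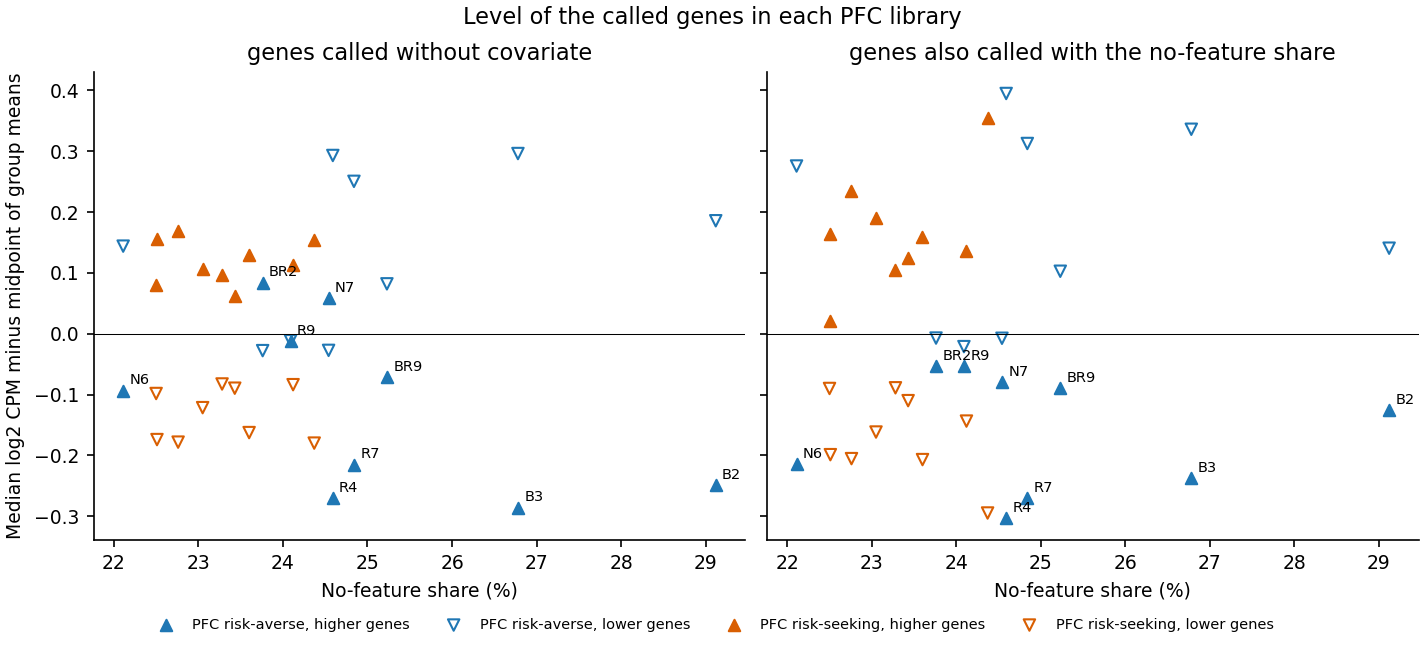
For each PFC library, the median over genes of log2 CPM minus the midpoint of the group means (y axis) is plotted against the no-feature share (x axis, %), for the called genes (left) and the kept genes (right); filled triangles are genes higher and open triangles genes lower in risk-seeking rats. On the left, B3, R4, B2 and R7 have the lowest medians over the higher genes among risk-averse rats, at -0.29 to -0.22, and BR2 the highest, at 0.08.

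The counts moved when single rats or sets of 4 rats were left out. Leaving out 1 library at a time gave 2264 to 4227 called genes without a covariate, and B3 was the 1 rat whose omission moved the count by over 1.5 times, to 2264. Of the 3521 genes, 2110 were called in the same direction in all 18 omissions, 964 higher and 1146 lower. Without B2, B3, R4 and R7, the rats of lowest not-unique share, the 4 genes called by edgeR were all lower and all among the 3521. Of these, ENSRNOG00000007057 stood at -0.53 ± 0.07 (SE, adjusted p = 0.00757) on the log2 scale. ENSRNOG00000005390 stood at -0.25 ± 0.04 (SE, adjusted p = 0.0461), and the other 2 are not printed. All 3521 genes held their direction there, at a median 0.581 of the log2 fold change, and 1826 of them had an unadjusted p under 0.05, against 2092 of all 15401 genes. Without the 4 rats of highest no-feature share (B2, B3, BR9 and R7) ENSRNOG00000007057 was the 1 gene called (log2 fold change -0.65 ± 0.10 (SE), edgeR adjusted p = 0.0475), again with all 3521 directions held, at a median 0.736. Both sets left 5 risk-averse rats, and the first removes the libraries that stood apart on the first principal component, so it is not chosen independently of expression. The second shares 3 of its rats with the first, so the omissions are not separate checks. Both fits reuse libraries on which the 3521 genes were called. Held directions and small unadjusted p values among these genes are therefore largely fixed by that choice.

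The set of kept genes was less stable still. With the no-feature share as covariate, leaving out 1 library gave from 0 to 1172 kept genes against 322. Omitting B2, R4, N6, BR5 or N1 left 0 in edgeR (lowest adjusted p from 0.0503 to 0.149, with 2081 to 3536 genes at an unadjusted p under 0.05). R7, B9, R1 and R6 left 2, 3, 18 and 21, and BR4 left 113. Omitting BR2, N7 or R9 raised the number to 1172, 1085 and 841. With the other 5 rats left out in turn it stayed within 1.5 times of 322. Kept genes passed in a median of 8 of the 18 omissions, and the highest number, 13, was reached by 2 genes, ENSRNOG00000007057 and ENSRNOG00000005390. Their log2 fold changes ran from -0.73 to -0.62 and from -0.33 to -0.29 over these omissions. That of ENSRNOG00000011621 ran from 0.40 without N6 to 0.65 without N7, with its call held in 11 of 18. Each of the other 4 named genes passed in 8 to 11.

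**Figure D5:**
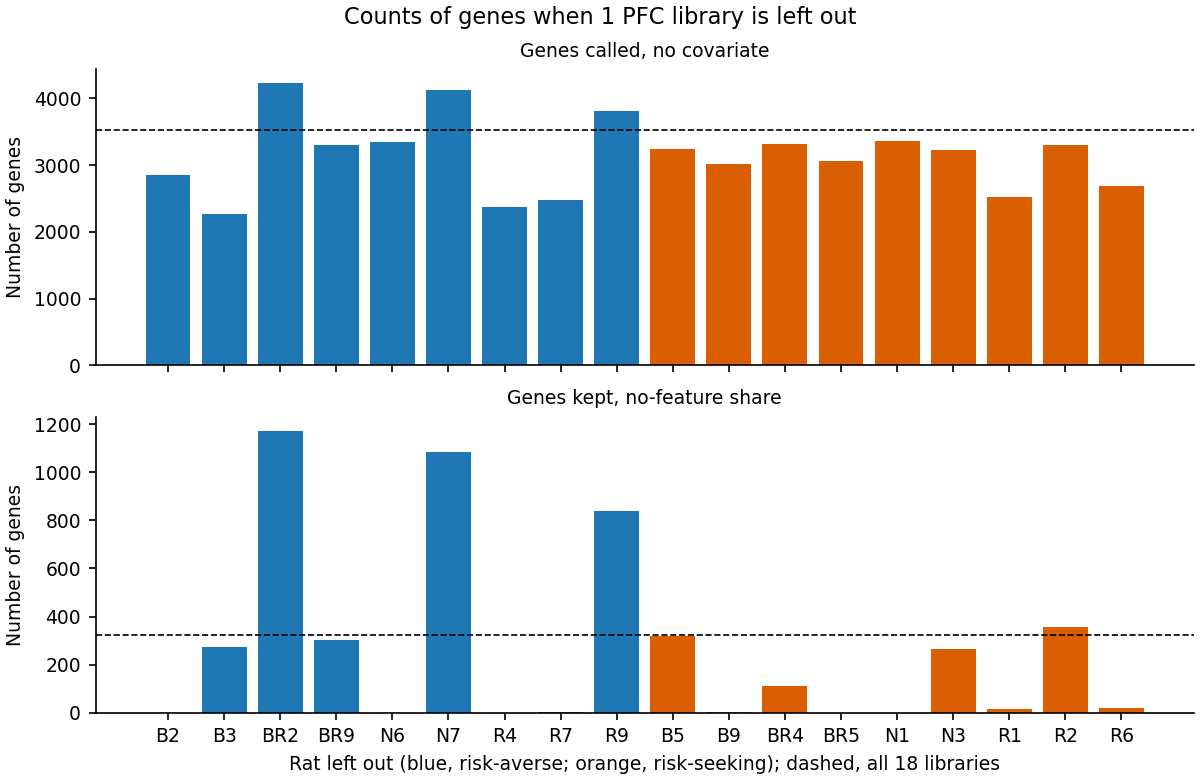
Bars give the number of genes called without a covariate (top) and the number of these kept with the no-feature share as covariate (bottom) when the rat named on the x axis is left out; dashed lines mark 3521 and 322 with all 18 libraries. The top bars range from 2264 to 4227, and the bottom bars from 0 to 1172, highest without BR2, N7 or R9.

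In the NAc, edgeR called 0 of 15418 genes (0%) between the preference groups, with 2748 at an unadjusted p under 0.05 and 544 called by DESeq2. The NAc libraries come largely from the same rats, 17 of the PFC ones, so the values are given side by side only. The no-feature share there ran from 24.9% to 27.9% (median 25.3%) in risk-seeking and from 24.5% to 33.0% (median 27.1%) in risk-averse rats. The ambiguous share ran from 0.701% to 0.779% and from 0.626% to 0.756%. ENSRNOG00000007057 was at 40.4 to 58.9 CPM (median 48.6 CPM) in risk-seeking and 42.2 to 83.4 CPM (median 62.5 CPM) in risk-averse NAc (log2 fold change -0.34 ± 0.10 (SE), edgeR adjusted p = 0.103). ENSRNOG00000005390 was at 45.9 to 66.9 CPM (median 54.7 CPM) and 56.5 to 65.0 CPM (median 59.0 CPM), with a log2 fold change of -0.14 ± 0.06 (SE, edgeR adjusted p = 0.244). Both overlapped between groups in NAc, where they did not in PFC, but the difference between regions was not tested here. By edgeR the NAc log2 fold change of ENSRNOG00000011621 was 0.07 ± 0.07 (SE, adjusted p = 0.678), and that of ENSRNOG00000003809 was 0.17 ± 0.08 (SE, adjusted p = 0.289). ENSRNOG00000013468 (0.23 ± 0.05 (SE), edgeR adjusted p = 0.0974), ENSRNOG00000038951 (0.16 ± 0.06 (SE), adjusted p = 0.142) and ENSRNOG00000007090 (-0.25 ± 0.08 (SE), adjusted p = 0.122) did not pass either. DESeq2 called ENSRNOG00000007057 and ENSRNOG00000013468 among its 544.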

How the data were processed

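Each library has 1 deposited file of unnormalised read pair counts for every gene, made by the authors. The tools, per the submitters' processing notes, were HTSeq 0.9.0, STAR 2.5.3a, Trimmomatic and edgeR. The builds in those notes are Rnor_6.0 and rn6. Per the labels' protocols, total RNA was prepared with a TruSeq version 2 kit and sequenced as 101-base paired reads. No annotation release or strand setting is stated, and values of overlapping, antisense or duplicated genes are therefore uncertain.

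The 5 HTSeq summary rows were kept out of library sizes and tests. Genes passing filterByExpr in the 18 PFC libraries were TMM-scaled. The quasi-likelihood test was that of edgeR 4.0.16 in R 4.3.3 (glmQLFit, robust=TRUE), with p adjusted by Benjamini-Hochberg over all genes tested. Covariates were centred shares. Standard errors were derived from the F statistic (absolute log2 fold change divided by its square root). Log2 CPM used a prior count of 2. NAc libraries were scaled and tested separately, so levels are not comparable between regions. In a chi-square test of counts, each of the 72 library pairs within PFC groups exceeded sampling noise, by 6.62 to 35.6 per degree of freedom, and no library was counted as a repeat. Alternatives used DESeq2 1.42.0 and limma 3.58.1 among others. The tests were checked on simulated counts. There each gene varied independently and only preference changed levels, so the check does not cover effects of read category shares.

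Named identifiers are, per direction, the 2 called genes of smallest p with a mean of at least 1 CPM, the 2 kept genes of smallest p with the no-feature share, and the gene called with the not-unique share. The parts of the rule that use largest folds and gene lists were dropped, since no symbol could be attached. The comparison, covariates and lists were chosen with earlier results of these data known.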

Additional observations from a re-analysis of the deposited data

Results flagged for a closer look

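Libraries far from the rest of their group of 9 were looked for in 36 groups of values (read categories in PFC, and the 7 named genes in PFC and NAc). A distant library was found in 2, where chance gives about 1 in 20 groups, or 1.8. Among risk-averse NAc libraries, rat B2 had 18.7 CPM of ENSRNOG00000013468, and the other 8 rats had 21.1 to 23.2 CPM. Among risk-seeking NAc libraries, rat R1 had 180.4 CPM of ENSRNOG00000003809, and the others had 120.1 to 141 CPM. Neither value enters a PFC comparison.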

How the results depend on the processing

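The count of 3521 genes stayed within 1.5 times under DESeq2 (3975), limma-voom (3473), RLE scaling (3467), robust=FALSE (3524), both other filters (2786 and 3608), an adjusted p under 0.10 (4902), title code letters (3824) and log2 gene counts (2854). It moved to 334 with the no-feature share, 76 with it as a share of every alignment, 1 with the not-unique share, and 0 with the ambiguous share or with both shares (737 genes at an unadjusted p under 0.05). Without the 4 or the 2 rats of highest no-feature share it was 1 or 1309, and without the 4 of lowest not-unique share 4. These sets of rats, and the alternatives within the covariate fits, were chosen after seeing the data. Leaving out 1 library gave 2264 to 4227.

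The 322 kept genes became 1087 under DESeq2, 31 under limma-voom, 648 with title code letters added and 87 with log2 gene counts added. They became 74 with the share over all alignments, 0 with both shares, 0 without the 4 rats of highest no-feature share (2782 genes at an unadjusted p under 0.05) and 55 without the 4 of lowest not-unique share. Leaving out 1 library gave 0 to 1172. RLE scaling, both filters, robust=FALSE and leaving out 2 rats gave 225 to 381. Of the 322, 315 were kept by DESeq2 and 31 by limma-voom. With the ambiguous share DESeq2 kept 1 gene, and the other alternatives run there kept 0. The cause of these moves was not tested.

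For the 7 named genes 205 of 238 PFC alternatives held the call, 33 held the direction but lost it, and none turned the direction. These genes were chosen for small p in the same libraries, so a held call is in part fixed by that choice. Every lost call was in a fit with a read category share as covariate or without a set of 4 rats. With the ambiguous share, and with both shares, all 7 lost it. With no covariate the call held in all 126 omissions of 1 library; with the no-feature share each named gene held it in 8 to 13 of 18. In NAc, ENSRNOG00000011621 turned from 0.066 to -0.018 on the log2 scale with the no-feature share as covariate, neither value past the threshold. No paired analysis was possible because each rat belongs to 1 preference group, and the replicate numbers only name samples.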
